A study of Mus musculus with 8 samples.

Results

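The cells described here are CD8 T cells of mouse liver with an effector phenotype marked by Klrg1, Cx3cr1 and S1pr5, compared between EomesTG and wild-type (WT) mice. A liver cell barcode was counted as an effector cell when it held at least 2 unique molecular identifiers (UMIs, 1 for each captured RNA molecule) of Klrg1, Cx3cr1 and S1pr5 together and 0 UMIs of Pdcd1 and Ncr1. Every barcode also had to pass minimums of 500 UMIs and of 300 genes and have fewer than 10% of its UMIs from mitochondrial genes. By this rule 64 of 4521 kept cells of EomesTG liver and 243 of 3150 kept cells of WT liver were effector cells, which makes 307 of 7671 liver cells and of 18732 kept cells in the whole series. The cells were thus chosen by the measured UMIs of 5 genes in these same libraries, so the levels of those genes and the shares of cells that meet the rule are descriptions and not findings.

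The study asked which gene program CD8 T cells take on, and how their clones expand, when they gain Eomes. The EomesTG group is homozygous for a transgene by which T cells express Eomes, on the C57BL/6 background, and the WT group is C57BL/6. Of each strain, 3 mice were pooled, CD8 T cells were sorted from the pooled spleens and livers, and every combination of genotype and organ was made into 1 RNA library and 1 T cell receptor (TCR) library, which gives 8 libraries. The promoter of the transgene, the age of the mice and any treatment are not given in the sources used here. A transgene sequence was not used, so a UMI of Eomes may stem from the transgene or from the endogenous gene. With 1 library per group there is no replicate check and no test between genotypes, a clone cannot be placed in a mouse, and all intervals below are 95% intervals that cover counting error only.

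Eomes and T-bet (Tbx21) are T-box transcription factors that direct the cytotoxic and memory programs of CD8 T cells and NK cells. In CD8 T cells that have become terminal effectors, Zeb2 acts with T-bet, the inhibitory lectin-like receptor Klrg1 and the fractalkine receptor Cx3cr1 are on the surface, and the sphingosine 1-phosphate receptor S1pr5 keeps the cells in the circulation and out of tissue niches. Liver-resident CD8 T cells are known for the opposite equipment, with Cxcr6 and inhibitory receptors such as PD-1 (Pdcd1) and with little S1P receptor expression. Each CD8 T cell carries a TCR made of an alpha chain (TRA) and a beta chain (TRB) joined from V and J segments, and the joint, the CDR3, is inherited by all cells of a clone.

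The CDR3 sequences of the clones that hold most effector cells, and of the largest clones of EomesTG liver, show which clones the effector cells and the main expansions of EomesTG liver belong to. Sequences are those of the authors' contig tables, coding strand, 5′ to 3′, and the capitals mark the bases between the stretches matched to the V and the J segment. The Trb locus lies on mouse chromosome 6 and the Tra locus on chromosome 14 (mm10).
EomesTG effector clone 1, TRA (TRAV14-3, TRAJ49): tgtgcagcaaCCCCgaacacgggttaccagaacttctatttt
EomesTG effector clone 1, TRB (TRBV31, TRBJ1-5): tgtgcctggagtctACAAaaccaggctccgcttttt
EomesTG effector clone 2, TRB (TRBV31, TRBJ2-7): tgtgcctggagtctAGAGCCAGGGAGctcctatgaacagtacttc
EomesTG largest liver clone, TRA (TRAV14D-1, TRAJ23): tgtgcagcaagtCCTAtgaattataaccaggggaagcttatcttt
EomesTG largest liver clone, TRB (TRBV3, TRBJ1-5): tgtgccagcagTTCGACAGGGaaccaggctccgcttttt
EomesTG second liver clone, TRA (TRAV19, TRAJ58): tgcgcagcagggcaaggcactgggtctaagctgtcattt
EomesTG second liver clone, TRB (TRBV15, TRBJ2-7): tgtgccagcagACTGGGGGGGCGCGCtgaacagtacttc
WT effector clone 1, TRA (TRAV10, TRAJ56): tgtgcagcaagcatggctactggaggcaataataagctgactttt
WT effector clone 1, TRB (TRBV29, TRBJ1-6): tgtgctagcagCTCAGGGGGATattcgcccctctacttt
The first EomesTG effector clone had 4 effector cells among 4 kept liver cells and 1 cell in spleen, and the second had 3 among 6. The largest clone of EomesTG liver had 492 kept cells, of which 454 held a Pdcd1 UMI and 0 met the effector rule, and the second had 430 cells, of which 399 held a Pdcd1 UMI and 0 met the rule. The first WT effector clone was also the largest clone of WT liver, with 57 effector cells among 114 kept cells and 39 cells in spleen, 20 of them effector cells there. In its alpha chain the V-matched and J-matched stretches met with no base between them. A further 8 WT effector cells carried the same TRB with no TRA found, and by TRB alone this clone had 65 effector cells. TRBV31 lies at chr6:41557691-41558452 on the minus strand, TRBV3 at chr6:41048290-41048828, TRBV15 at chr6:41141188-41141658 and TRBV29 at chr6:41271394-41271881, these 3 on the plus strand.

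Effector cells made up 1.42% (1.09 to 1.80) of kept EomesTG liver cells, against 7.71% (6.81 to 8.70) of WT liver cells, so the share in WT was 5.45 times that in EomesTG. Since the rule counts UMIs, every cell was also thinned to 2000 UMIs, which left out 586 shallower EomesTG and 196 shallower WT cells. The shares were then 1.02% (0.727 to 1.38) in EomesTG and 4.91% (4.16 to 5.75) in WT. In spleen, 29 of 5726 EomesTG cells (0.506%) and 109 of 5335 WT cells (2.04%) met the same rule. The share was thus lower in EomesTG in both organs, and these are the values that chose the cells.

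Part of the gap came from the criterion on Pdcd1, the gene of PD-1. Before any exclusion, 118 EomesTG liver cells (2.61%) and 286 WT liver cells (9.08%) had an effector sum of 2 or more. Among them a Pdcd1 UMI was present in 54 of 118 EomesTG cells (45.8%, 36.6 to 55.2) and in 36 of 286 WT cells (12.6%, 8.97 to 17.0). Among cells with a sum under 2 it was present in 62.1% of EomesTG and 7.61% of WT cells. A UMI of Ncr1, an NK cell receptor, was present in 1 EomesTG and 7 WT cells with a sum of 2 or more. The EomesTG cell also held a Pdcd1 UMI. A cell with 0 UMIs of Pdcd1 may still express it below detection at this depth.

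**Figure D1:**
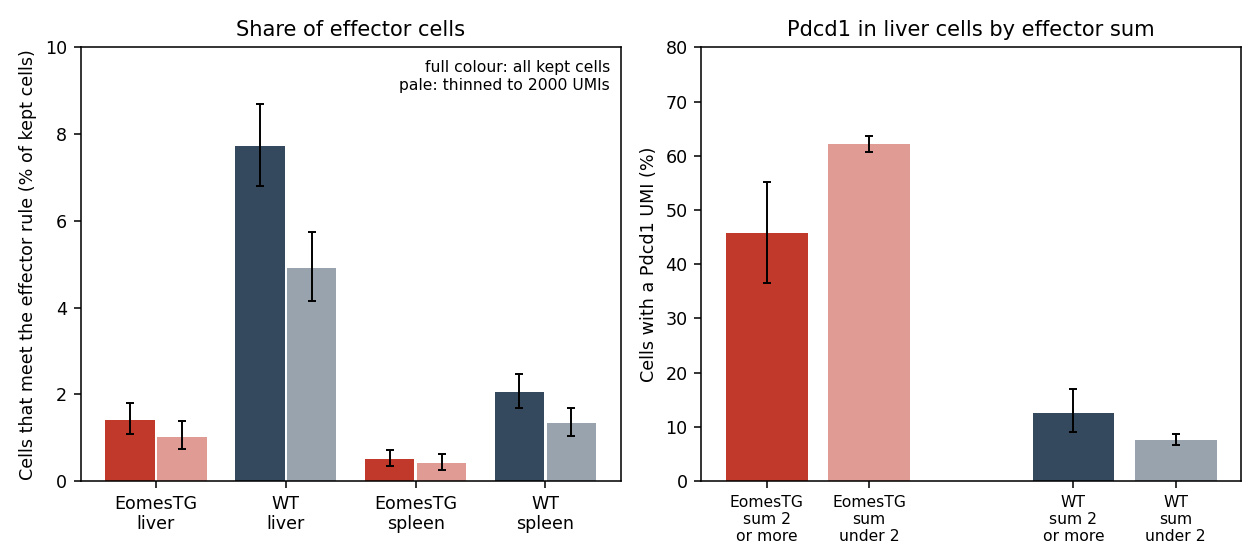
The left panel plots the percent of kept cells that met the effector rule in each library, in full colour for all kept cells and in pale colour after thinning to 2000 UMIs; the right panel plots the percent of liver cells with a Pdcd1 UMI by the sum of Klrg1, Cx3cr1 and S1pr5 UMIs; bars are shares and lines exact binomial 95% intervals. EomesTG liver stands at 1.42% and WT liver at 7.71%, and a Pdcd1 UMI was present in 45.8% of EomesTG and 12.6% of WT cells with a sum of 2 or more.

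The rule genes had these values in the cells that met the rule. The effector sum had a median of 4 in both, with highest sums of 18 in EomesTG and 31 in WT. Just inside the limit, a sum of 2 was found in 20 EomesTG and 71 WT effector cells; just outside it, 45 EomesTG and 146 WT cells that met the other criteria had a sum of 1. A Klrg1 UMI was present in 56.3% of EomesTG and 62.6% of WT effector cells, a Cx3cr1 UMI in 78.1% and 78.2% of EomesTG and WT cells, and an S1pr5 UMI in 62.5% of EomesTG and 68.7% of WT cells. All of the 3 genes were found together in 29.7% of EomesTG and 32.1% of WT effector cells, and a single one of them in 32.8% and 22.6% of EomesTG and WT cells.

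The label of the cells was checked on the marker that the rule did not use. Zeb2 stood at 216 CPM (UMIs of the gene per 1e+06 UMIs of the cell set) in EomesTG and 266 CPM in WT effector cells, against 22.4 and 15.4 CPM in the other kept liver cells of EomesTG and WT. Both sets of effector cells thus carried this factor of terminal effectors well above the other cells of their library. Cd3e was detected in 64 of 64 EomesTG and 236 of 243 WT effector cells, Cd8a in 57 and 200, and Cd8b1 in 55 and 232 cells of EomesTG and WT. Both sets therefore carry the CD8 T cell genes.

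Depth per effector cell was close between the genotypes, with a median of 4328 UMIs (823 to 21154) in EomesTG and 4205 UMIs (822 to 27469) in WT and medians of 1754.5 and 1643 genes. The effector cells held 378856 UMIs in EomesTG and 1418271 in WT, so precision is set by the EomesTG side. Markers of CD4 T cells, erythroid cells and platelets had 0 UMIs on both sides, and hepatocyte markers 0 in EomesTG and 2 in WT. NK cell markers summed to 89.7 CPM in EomesTG and 134 CPM in WT effector cells, B cell markers to 2 and 17 UMIs, myeloid markers to 8 and 36 UMIs, and endothelial markers to 1 and 26 UMIs. The NK cell markers include Ncr1, which is 0 by the rule. Dendritic cell markers summed to 361.6 CPM in EomesTG and 19.7 CPM in WT, with 91 of the 95 Cd74 UMIs of EomesTG in a single cell that also held 361 Gzma and 12 Ikzf2 UMIs; its part in other results was not tested beyond leaving out the highest cell of a gene. In TCR data 1 of 64 EomesTG and 23 of 243 WT effector cells (9.47%) had 2 productive TRB chains, which can mark a droplet with more than 1 cell. In all, 1 EomesTG and 8 WT effector barcodes also occur in another library of the series.

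Eomes itself was not higher in EomesTG than in WT effector cells. Its level was 92.4 CPM in EomesTG and 118 CPM in WT effector cells, a log2 ratio of EomesTG over WT of -0.35 with an interval from -0.92 to 0.18. In the other kept liver cells Eomes stood at 183 CPM in EomesTG and 81.4 CPM in WT, a log2 ratio of 1.17. An Eomes UMI was present in 17 of 64 EomesTG effector cells (26.6%) and 83 of 243 WT effector cells (34.2%), against 46.6% and 26.8% of the other cells of EomesTG and WT. The RNA counts thus show no excess of Eomes in EomesTG effector cells, whereas the other EomesTG cells had more than the other WT cells. After thinning to 2000 UMIs it was present in 8 of 40 EomesTG and 30 of 145 WT effector cells. Eomes lies at chr9:118478212-118486132 on the plus strand of GRCm38.

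The Eomes ratio differed with the cells that were counted, at 0.60 when cells with a Pdcd1 UMI were kept and 0.32 when each clone was counted once. In cells with an effector sum of 2 or more and a Pdcd1 UMI, which the rule puts aside, Eomes stood at 258 CPM in 54 EomesTG cells and 132 CPM in 36 WT cells, a log2 ratio of 0.97. Outside the largest TRB clone of each library, the effector cells (59 in EomesTG and 178 in WT) had a log2 ratio of 0.02, from -0.58 to 0.60. Within EomesTG liver, effector cells had less Eomes than the other cells, with a log2 ratio of effector over other cells of -0.99 (-1.51 to -0.51), whereas within WT liver they had more, at 0.53 (0.29 to 0.77). Spdya was detected in 5 of 64 EomesTG and 0 of 243 WT effector cells, and in 167 of 4457 EomesTG and 0 of 2907 WT other cells. Of T-bet's gene, Tbx21, effector cells held 145 CPM in EomesTG and 170 CPM in WT, a log2 ratio of -0.23 (-0.68 to 0.20).

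Across the genome few genes were 2-fold apart between the effector cells of the genotypes. Of 4507 genes with at least 50 UMIs over both sides, 37 were at least 2-fold higher in EomesTG effector cells (0.821%) and 106 at least 2-fold lower (2.35%), with the rule genes left out. The median log2 ratio over all 4507 was 0.00 and the 5th and 95th percentiles were -0.76 and 0.60. Of the 37 higher genes, 6 were antigen receptor segments and all had an interval on that side of equality; of the 106 lower genes, 11 were receptor segments, 73 had an interval on that side, and 83 had under 10 UMIs in 1 genotype. With cells holding a Pdcd1 UMI kept, 101 genes were higher and 67 lower, and with each clone counted once 111 and 200. The other kept liver cells, over the same 4507 genes, had 125 higher (2.77%) and 57 lower (1.26%), with 5th and 95th percentiles of -0.46 and 0.75; their far larger UMI totals make these ratios more precise.

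Most genes that were 2-fold apart in the other liver cells were not 2-fold apart in effector cells, although they were more often so than genes in general. The 125 genes that were at least 2-fold higher in other EomesTG cells, with a median log2 ratio there of 1.36, had a median of 0.20 in effector cells, and 9 of them were at least 2-fold higher there. These 9 are 7.20% of the 125, beside 0.821% of all genes that were higher in effector cells. They are 24.3% of the 37, beside 2.77% of all genes that were higher in other cells. The 57 genes that were at least 2-fold lower in other EomesTG cells, with a median of -1.26 there, had a median of -0.16 in effector cells. Of them 5 were also lower by that fold in effector cells. These 5 are 8.77% of the 57, beside 2.35% of all genes that were lower in effector cells. They are 4.72% of the 106, beside 1.26% of all genes that were lower in other cells. These are descriptions of libraries with unequal cell numbers, and the difference between the cell sets was not tested. The rule picks cells alike in its 5 genes from both genotypes, while the other cells are not matched. Among cells with an effector sum under 2, 62.1% in EomesTG and 7.61% in WT held a Pdcd1 UMI. The 125 and 57 genes were also chosen by their ratio in the other cells, which favours larger ratios there.

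**Figure D2:**
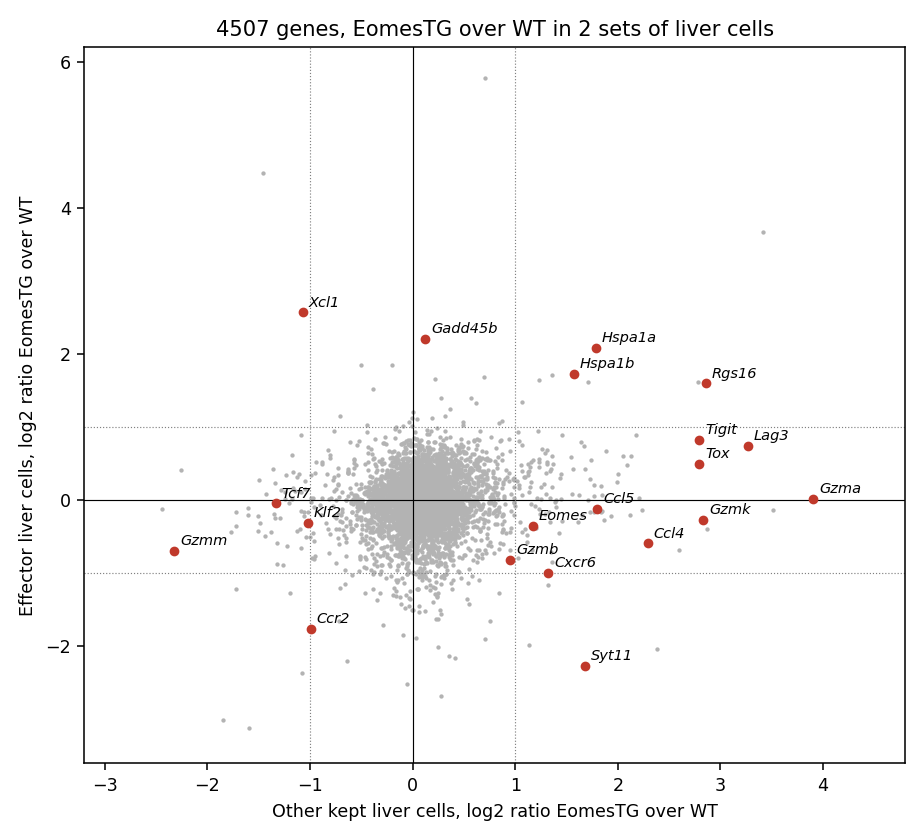
Each point is 1 of the 4507 genes, with the log2 ratio of EomesTG over WT in the other kept liver cells on the x axis and in effector liver cells on the y axis; dotted lines mark 2-fold and red points are genes named in the text. Gzma lies at 3.90 on the x axis and 0.02 on the y axis, and Hspa1a at 1.79 and 2.09.

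Among cytotoxic granule genes, which encode the proteases and pore proteins of killing, 0 of 15 measured of 17 listed were 2-fold apart in effector cells, with a median log2 ratio of 0.05. In the other cells 7 of the 15 were at least 2-fold higher in EomesTG and 1 lower, with a median of 0.96. Gzma, a granzyme of circulating cytotoxic cells, stood at 4068 CPM in EomesTG and 4011 CPM in WT effector cells (log2 0.02, -0.06 to 0.10), against 5329 and 356 CPM in the other cells of EomesTG and WT (3.90). Within WT liver, effector cells had a Gzma log2 ratio to other cells of 3.49, and within EomesTG liver one of -0.39. A Gzma UMI was present in 36 of 64 EomesTG and 155 of 243 WT effector cells, and 361 of 1541 EomesTG UMIs came from 1 cell, without which the log2 ratio was -0.28. In naive-phenotype liver cells, which hold UMIs of naive-cell genes and none of Nkg7, and where free RNA would show, Gzma had 1 UMI in 43 EomesTG cells (4.84 CPM) and 33 UMIs in 75 WT cells (93.1 CPM).

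Other granule genes kept within 2-fold. Gzmb, the granzyme of activated killer cells, was lower, at 454 CPM in EomesTG and 800 CPM in WT effector cells (log2 -0.82, -1.06 to -0.59), although in other cells it was 666 CPM in EomesTG and 344 CPM in WT. When effector cells were chosen after thinning, which lets in more cells with Pdcd1, the Gzmb ratio was 0.43. Gzmk stood at 406 CPM in EomesTG and 490 CPM in WT effector cells (-0.27), against 2.83 in the other cells. Perforin (Prf1) stood at 129 CPM in EomesTG and 114 CPM in WT effector cells (0.19, -0.30 to 0.66). Gzmm was lower in both sets of cells, with log2 ratios of -0.69 (-1.27 to -0.15) in effector and -2.32 in other cells, but 0.26 in effector cells chosen after thinning. Fasl, the death ligand, had a ratio of -0.28 (-0.69 to 0.11) and Serpinb6b, a granzyme inhibitor, one of 0.46 (0.03 to 0.88).

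Of 16 listed terminal effector genes 13 were measured, 1 was at least 2-fold higher and 0 lower, with a median of 0.03 in effector and 0.95 in other cells. The one was Fgl2, a secreted fibrinogen-like protein, at 84.5 CPM in EomesTG and 33.1 CPM in WT effector cells (1.35, 0.65 to 2.03). Itgax, the CD11c integrin chain, stood at 71.3 CPM in EomesTG and 41.6 CPM in WT (0.78, 0.06 to 1.46).

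Among chemokines and cytokines, 9 of 17 listed were measured, 1 was 2-fold higher and 0 lower, with a median of -0.12 in effector and 0.16 in other cells. Ccl5, the chemokine of memory and effector CD8 T cells, stood at 26786 CPM in EomesTG and 29061 CPM in WT effector cells (-0.12, -0.15 to -0.09), against 27375 and 7859 CPM in other cells of EomesTG and WT; its ratio was 0.21 in cells chosen after thinning and 0.14 with Pdcd1 cells kept. Ccl4, an inflammatory chemokine, stood at 586 CPM in EomesTG and 882 CPM in WT effector cells (-0.59, -0.80 to -0.38), against 1981 and 405 CPM in other cells (2.29), and 0.72 with Pdcd1 cells kept. Both genes were thus slightly lower in effector cells by the rule as it stands, and higher in the rest of the organ. Ccl3 had a ratio of -0.13 in effector and 3.52 in other cells. Interferon gamma (Ifng) was higher in both, at 528 CPM in EomesTG and 316 CPM in WT effector cells (0.74, 0.49 to 0.98) and with a ratio of 1.67 in other cells. Xcl1, a chemokine for cross-presenting dendritic cells, had 54 UMIs in EomesTG and 34 in WT effector cells (2.57), but 44 of the 54 came from 1 cell of 16432 UMIs, and without it the ratio was 0.42.

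Inhibitory receptors and exhaustion genes showed the widest gap between the cell sets. Of 16 listed, 10 were measured; 1 was at least 2-fold higher in EomesTG effector cells and 0 lower, with a median of 0.62, whereas 8 of the 10 were higher in other cells, with a median of 2.39. With Pdcd1 cells kept the median was 1.71, and Lag3 had a ratio of 2.67, Tox one of 2.31 and Tigit one of 2.55. Because the rule asks for 0 UMIs of Pdcd1, cells rich in genes that go with it are under-represented in both genotypes. Lag3, an inhibitory receptor for MHC class II, stood at 44.9 CPM in EomesTG and 26.8 CPM in WT effector cells (0.74, -0.17 to 1.60), against 338 and 35.2 CPM in other cells. Tox, a factor of exhausted T cells, stood at 52.8 CPM in EomesTG and 37.4 CPM in WT (0.50, -0.32 to 1.26), against 377 and 54.3 CPM in other cells. So the levels of both in EomesTG effector cells were nearer to those of WT than to those of other EomesTG cells. Rgs16, a regulator of G protein signalling, stood at 135 CPM in EomesTG and 44.4 CPM in WT effector cells (1.60, 1.04 to 2.15). Over the alternative settings the Rgs16 ratio ran from 0.29 to 2.75. Tigit had a ratio of 0.83 (0.11 to 1.51), Cd160 one of 0.81 (0.43 to 1.18; -0.20 in cells chosen after thinning) and the nuclear receptor Nr4a2 one of 0.89 (0.43 to 1.35).

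In the cells with an effector sum of 2 or more that held a Pdcd1 UMI, the same genes were apart. Lag3 stood at 380 CPM in EomesTG and 67.3 CPM in WT, Tox at 421 and 102 CPM in EomesTG and WT (a log2 ratio of 2.04), and Ccl4 had a ratio of 1.93. Those cells were few, 54 in EomesTG and 36 in WT. Cells with an Nkg7 UMI, without Pdcd1 and with an effector sum of 0, numbered 1536 in EomesTG and 2345 in WT and had ratios of 2.20 for Gzma, 2.18 for Lag3 and 1.49 for Tox. These ratios were larger than those of the effector cells, but this set of cells is not matched between the genotypes. How far the Pdcd1 criterion bears on the ratios of the effector cells was not tested. Among the 31 EomesTG and 103 WT effector cells with a sum of 5 or more, Lag3 had a ratio of -0.17, Tox one of -0.57 and Gzma one of -0.20.

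**Figure D3:**
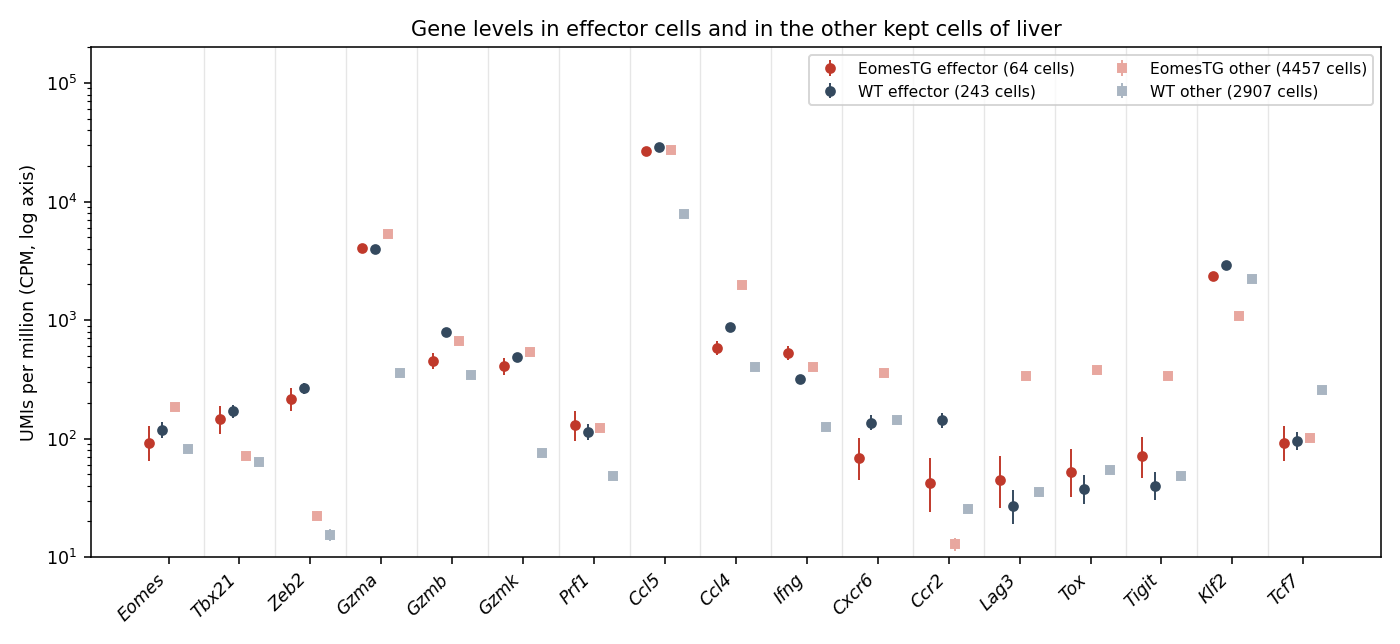
Levels in CPM (log axis) of 17 genes in EomesTG effector cells, WT effector cells, other EomesTG liver cells and other WT liver cells, from left to right for each gene; lines are exact Poisson 95% intervals. For Gzma, Ccl5, Lag3 and Tox the effector cells of both genotypes lie close together, while the other cells are apart (Gzma 5329 CPM in EomesTG and 356 CPM in WT).

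Among chemokine receptors and integrins, 10 of 18 listed were measured, 0 were 2-fold higher and 1 lower, with a median of -0.18. The lower one was Ccr2, the receptor by which cells leave the blood toward inflamed tissue. Ccr2 stood at 42.2 CPM in EomesTG (16 UMIs, 11 of 64 cells) and 143 CPM in WT (203 UMIs, 91 of 243 cells), a log2 ratio of -1.76 (-2.60 to -1.03). In other cells the ratio of Ccr2 was -0.996, and outside the largest TRB clone it was -1.69. Cxcr6, the receptor that holds CD8 T cells in liver, lies on the same chromosome at chr9:123806475-123811760, with Ccr2 at chr9:124101950-124113557. Cxcr6 stood at 68.6 CPM in EomesTG and 137 CPM in WT effector cells (-0.995, -1.65 to -0.40), just short of 2-fold, while other cells had 361 CPM in EomesTG and 144 CPM in WT (1.32). Both receptors were thus lower in EomesTG effector cells, but Cxcr6 had a ratio of 0.40 in cells chosen after thinning and 0.25 with Pdcd1 cells kept. Within EomesTG, effector cells had a Cxcr6 log2 ratio to other cells of -2.39, and within WT of -0.08.

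Genes of recirculation and of naive cells leaned lower in EomesTG without reaching 2-fold. Of 11 listed egress and recirculation genes 10 were measured, 0 were 2-fold apart, the median was -0.30 and 1 of 10 lay above 0; in other cells 5 were 2-fold lower, with a median of -0.87. Klf2, the factor that drives S1pr1, stood at 2347 CPM in EomesTG and 2913 CPM in WT effector cells (-0.31, -0.42 to -0.21) and had a ratio of -1.02 in other cells. S1pr1, the receptor by which lymphocytes leave tissue, had a ratio of -0.42 (-0.93 to 0.06). Of 13 listed naive genes 6 were measured, 0 were 2-fold apart and the median was -0.58, against -1.29 in other cells with 5 lower. Lef1, a factor of naive cells, stood at 63.4 CPM in EomesTG and 116 CPM in WT (-0.88, -1.56 to -0.25), and Tcf7, its partner in naive and memory cells, at 92.4 and 95.2 CPM in EomesTG and WT (-0.04).

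The heat shock genes were the one list whose measured members all lay above 0. Of 12 listed chaperones and co-chaperones 11 were measured, 2 were at least 2-fold higher and 0 lower, with a median of 0.65, and in other cells the median was 0.63 with 5 higher. Hspa1a, an inducible HSP70 gene, stood at 1433 CPM in EomesTG and 336 CPM in WT effector cells (2.09, 1.91 to 2.27), in 45 of 64 and 79 of 243 cells. Hspa1b, its near-identical neighbour on chromosome 17, stood at 441 CPM in EomesTG and 133 CPM in WT (1.73, 1.42 to 2.03); reads of the pair can be assigned to either, so the split between them is uncertain. Dnajb1 had a ratio of 0.94 (0.72 to 1.17) and Hsph1 one of 0.89 (0.43 to 1.34). The gap was found in other cell sets of the libraries too, since naive-phenotype cells had 1446 CPM of Hspa1a in EomesTG and 443 CPM in WT. The higher Hspa1a level was thus shared by other cells of the EomesTG liver library.

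The 12 highest genes also held Gadd45b, Gadd45g and Cdkn1a, which are known from the response to stress and DNA damage. Gadd45b, a stress sensor upstream of p38, stood at 150 CPM in EomesTG and 32.4 CPM in WT effector cells (2.21, 1.63 to 2.81), with 19 of 57 UMIs in 1 cell and a ratio of 1.83 without it; in other cells the ratio was 0.12. Gadd45g had a ratio of 1.40 (0.81 to 1.97) in effector and 0.28 in other cells. Cdkn1a, the p21 inhibitor of the cell cycle, had a ratio of 1.71 (0.93 to 2.49). Both Gadd45 genes were thus at least 2-fold higher in the effector cells but not in the rest of the organ. Ikzf2, the Helios factor, had a ratio of 1.67, and 1.15 without the cell that held 12 of its 28 UMIs. The others were Phlda1 (1.61), Wdr43 (1.68), Zfand2a (1.65) and Ifrd1 (1.15), besides Hspa1a, Hspa1b, Rgs16 and Xcl1. Of immediate early genes, 0 of 13 measured of 15 listed were 2-fold apart, and Jun had a ratio of 0.79.

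Of the 12 lowest genes 8 had fewer than 10 UMIs in EomesTG. Traf6, an adaptor of NF-kB signalling, had 2 UMIs in EomesTG and 48 in WT effector cells (-2.68, -5.77 to -0.75), and Sec63, of protein import into the endoplasmic reticulum, had 3 and 64 (-2.51). Riox2, Syt11, Oxr1, Srp54a, Use1 and Rb1cc1 likewise had 3 to 6 EomesTG UMIs. Their intervals are wide, and in other cells of the organ 6 of these 8 genes had ratios between -0.05 and 0.41, the exceptions being Riox2 (-0.64) and Syt11 (1.68). Thrap3 stood at 71.3 CPM in EomesTG and 155 CPM in WT (-1.12, -1.76 to -0.54). Tyrobp, an adaptor of NK receptors that is also an NK cell marker, had 4 EomesTG and 77 WT UMIs (-2.36, -4.27 to -0.95); the part of NK cells in this was not tested. Of cytokine receptors, 12 of 20 listed were measured and 1 was lower, Ifnar1, a chain of the type I interferon receptor (-1.31, -2.30 to -0.44).

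Cell cycle genes differed in single genes and little in the share of cycling cells. Cells with at least 20 UMIs of the cell cycle list made up 11 of 64 EomesTG effector cells (17.2%) and 38 of 243 WT effector cells (15.6%), above the 4.82% and 6.81% of other cells of EomesTG and WT. After thinning, at least 10 such UMIs were present in 9 of 60 EomesTG and 30 of 228 WT effector cells chosen before thinning. Of 15 listed genes all were measured, 0 were 2-fold higher and 1 was lower, Ccnb1, the cyclin of mitotic entry (-1.24, -2.29 to -0.33). Ube2c, which acts in mitotic exit, stood at 185 CPM in EomesTG and 410 CPM in WT (-1.15, -1.53 to -0.79), and the linker histone gene Hist1h1b at 92.4 and 189 CPM in EomesTG and WT (-1.03). These genes sat in few cells, Ube2c in 13 EomesTG and 45 WT cells, and without cells of at least 20 cell cycle UMIs the ratio of Ube2c was 0.25. Within WT, its largest TRB clone had ratios to the other WT effector cells of 1.86 for Hist1h1b and 0.94 for Mki67; the part of this clone in the genotype ratios was not tested beyond leaving it out.

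The remaining lists had medians between -0.31 and 0.19. NK receptors and adaptors (9 measured of 21) had a median of -0.07, cytokine receptors (12 of 20) 0.07, transcription factors (18 of 28) -0.04, S100, galectin and annexin genes (14 of 15) 0.06, TCR signalling genes (18 of 19) -0.14, apoptosis and survival genes (12 of 15) 0.19, MHC class I genes (14 of 14) -0.04, glycolysis genes (12 of 15) 0.07 and interferon response genes (8 of 16) -0.31. Within these 9 lists 2 genes were 2-fold higher, Ikzf2 and Anxa5 (1.01), and 2 lower, Tyrobp and Ifnar1. The CD8 beta chain gene Cd8b1 stood at 1333 CPM in EomesTG and 1912 CPM in WT (-0.52, -0.66 to -0.38), while Cd8a stood at 610 CPM in both (0.00) and Cd3e had a ratio of 0.07. Tissue residency genes (6 of 14) had a median of 0.33, with Xcl1 and Cxcr6 as the extremes.

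**Figure D4:**
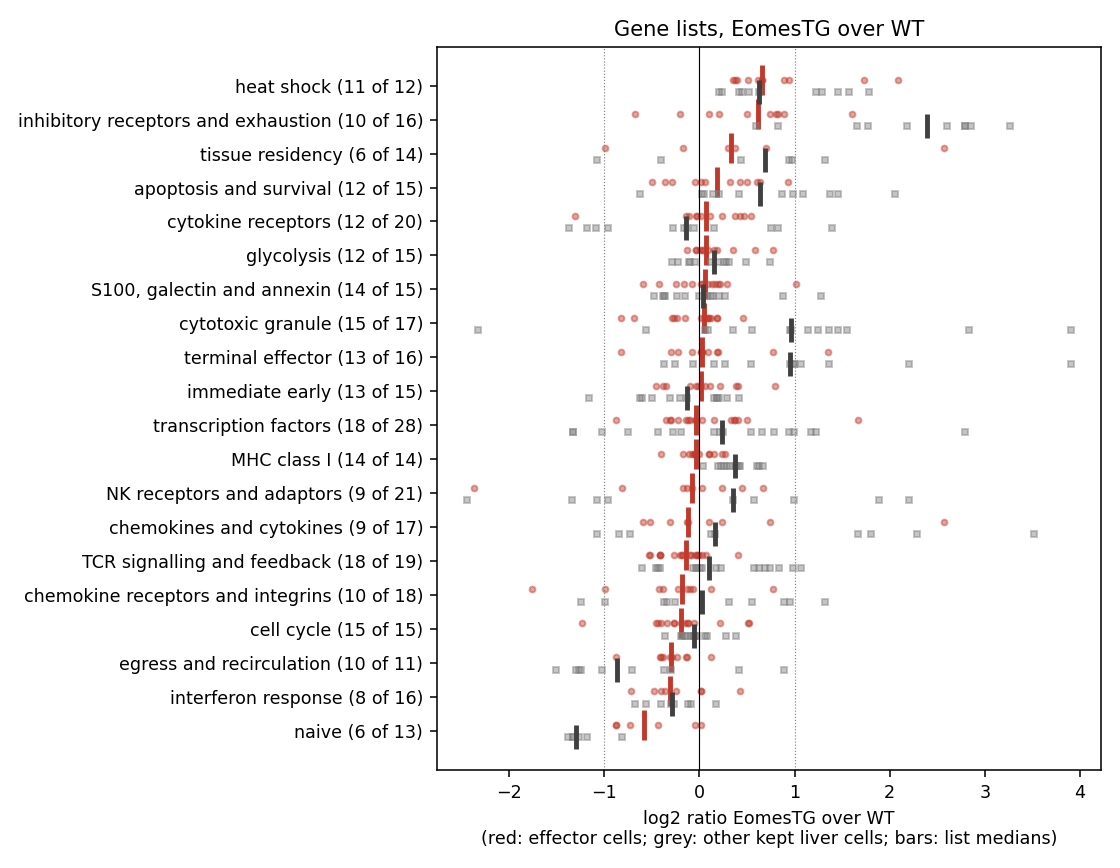
Log2 ratio of EomesTG over WT for the measured members of each gene list, in effector liver cells (red circles) and other kept liver cells (grey squares), with bars at the list medians, dotted lines at 2-fold and the measured and listed members in brackets. Medians in effector cells run from -0.58 (naive) to 0.65 (heat shock), and for inhibitory receptors the medians are 0.62 in effector and 2.39 in other cells.

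Large clones held a smaller share of effector cells in EomesTG than in WT, whereas among the other liver cells they held a larger share. A clone was a set of cells with identical productive TRA and TRB CDR3 nucleotides, and 57 EomesTG and 226 WT effector cells had one. They fell into 46 clones in EomesTG and 139 in WT. The largest held 4 of 57 EomesTG cells (7.02%, 1.95 to 17.0) and 57 of 226 WT cells (25.2%, 19.7 to 31.4). By TRB alone the largest held 5 of 57 EomesTG cells (8.77%) and 65 of 226 WT cells (28.8%). Clones of at least 20 kept liver cells held 2 of 57 EomesTG effector cells (3.51%, 0.428 to 12.1) and 59 of 226 WT effector cells (26.1%). Among the other cells they held 50.3% in EomesTG and 3.89% in WT. Of the 59 WT cells 57 were of the largest clone, and the other WT clones of this size held 2 and 0. The higher WT share at this size thus rests on that clone. Clones of at least 2 kept cells held 56.1% of EomesTG and 54.9% of WT effector cells, with a median clone size of 2 in both. By TRB alone, clones of at least 20 kept cells held 7 of 57 EomesTG (12.3%, 5.08 to 23.7) and 73 of 226 WT effector cells (32.3%). The 10 largest clones of EomesTG liver held 40.5% of its kept cells with a clone and 3.51% of its effector cells, while those of WT held 8.69% and 34.5%. The EomesTG effector cells, as chosen by the rule, were thus mostly outside the expansions that fill EomesTG liver, and most of the WT figure rests on 1 clone. The rule bears on this, since a cell with a Pdcd1 UMI cannot be an effector cell. A Pdcd1 UMI was held by 454 of 492 cells of the largest EomesTG clone and 399 of 430 of the next. Of all kept cells with a clone, 62.7% in EomesTG and 7.80% in WT held one. How far the rule sets the contrast was not tested.

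The V segments followed the clones. TRBV31 was used by 10 of 57 EomesTG effector cells (17.5%) with 3 different TRB CDR3 sequences, against 1.68% of other EomesTG cells, and TRBV29 by 79 of 226 WT effector cells (35.0%) with 10 different ones, against 8.64% of other WT cells. In RNA counts Trbv29 stood at 97.7 CPM in EomesTG and 847 CPM in WT effector cells (-3.12), and 65 of the 79 WT cells with TRBV29 belong to the largest TRB clone. Clones of 2 or more effector cells held 33.3% (21.4 to 47.1) of EomesTG and 46.5% of WT effector cells, and the 5 largest held 22.8% in EomesTG and 33.6% in WT.

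Clones of effector cells also held Pdcd1-bearing cells in both genotypes. Of the 299 kept EomesTG cells that belonged to a clone with an effector cell, 19.1% met the rule and 61.2% (55.4 to 66.8) held a Pdcd1 UMI, against 56.6% and 11.5% of 399 such WT cells. Over all kept cells with a clone, 62.7% in EomesTG and 7.80% in WT held a Pdcd1 UMI. The shares of the effector clones are lowered by the rule, since their effector cells can hold no Pdcd1 UMI. Besides the effector cells, these clones had 183 cells with and 59 without a Pdcd1 UMI in EomesTG. In WT they had 46 with and 127 without. The EomesTG Pdcd1 cells sat in few clones: 9 of 46 effector clones (19.6%) had a Pdcd1 cell, and they held 10 effector cells among 240 kept cells, the largest with 132. The other 37 EomesTG clones had 47 effector cells among 59 kept cells and at most 6 cells each. In WT, 15 of 139 effector clones (10.8%) had a Pdcd1 cell, with 87 effector cells among 208 kept cells, and the other 124 clones had 139 effector cells among 191. So most effector cells of EomesTG liver belonged to small clones in which no cell with a Pdcd1 UMI was found, and a clone sampled with 1 or 2 cells says little about its other cells.

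Levels were also set side by side for effector cells with a clone and for the Pdcd1 cells of effector clones; most of these effector cells, 47 of 57 in EomesTG and 139 of 226 in WT, belong to clones without a Pdcd1 cell, so mainly different clones are compared. In EomesTG, effector cells with a clone had 89.7 CPM of Eomes, 56.1 of Tox, 44.9 of Lag3 and 2255 of Klf2, against 177 CPM of Eomes, 576 of Tox, 496 of Lag3 and 523 of Klf2 in the Pdcd1 cells of the effector clones. In WT, effector cells had 118 CPM of Eomes, 37.1 of Tox and 27.2 of Lag3, against 107, 109 and 51.1 CPM in the Pdcd1 cells of their clones. The Pdcd1 cells had more Tox and Lag3 in both genotypes, and the choice of cells by Pdcd1 bears on this.

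Clones of effector cells were also found in the spleen of the same pool. This held for 13 of 57 EomesTG effector cells (22.8%, 12.7 to 35.8) and 107 of 226 WT effector cells (47.3%), against 10.8% and 8.60% of the other liver cells of EomesTG and WT. Without the largest effector clone of each genotype the shares were 17.0% (8.07 to 29.8) in EomesTG and 29.6% (22.8 to 37.1) in WT. In both libraries the effector cells thus had the larger share of clones seen in spleen, with the EomesTG value resting on 13 cells. Without the largest clone the EomesTG interval includes the 10.8% of its other cells.

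**Figure D5:**
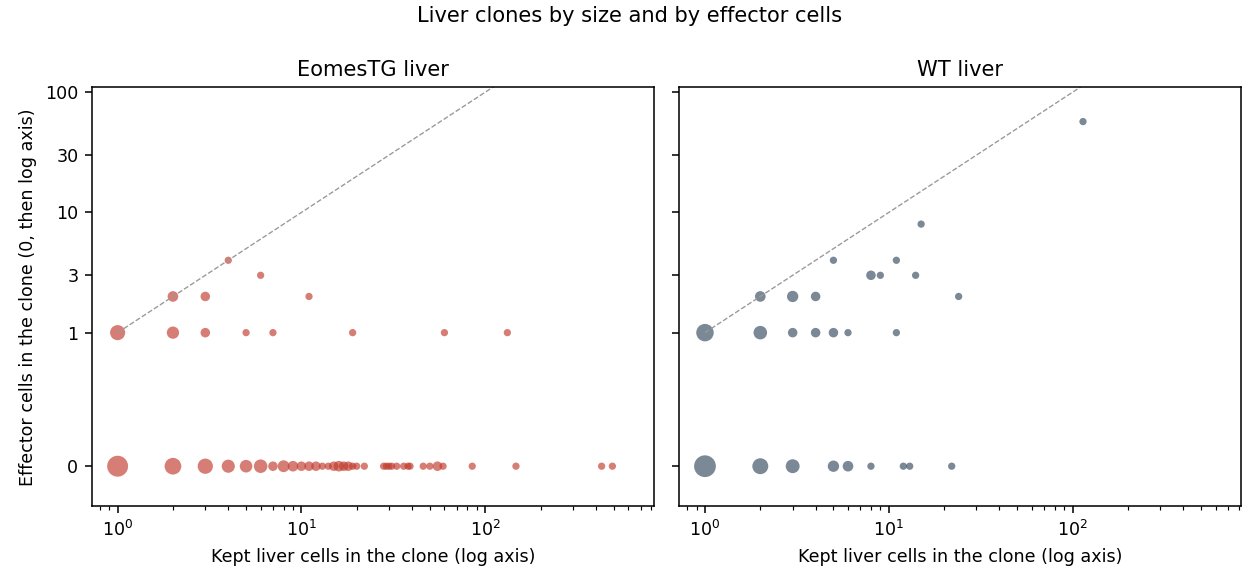
Each point is a clone size class of EomesTG liver (left) or WT liver (right), with the kept liver cells of the clone on the x axis (log) and its effector cells on the y axis (0, then log); larger points stand for more clones and the dashed line marks clones made of effector cells alone. The EomesTG clones of 492 and 430 cells hold 0 effector cells, and the largest WT clone of 114 cells holds 57.

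In spleen the effector cells were fewer still and not all ratios matched those of liver. Eomes stood at 223 CPM in 29 EomesTG and 117 CPM in 109 WT effector cells of spleen (0.93, 0.24 to 1.59), against the ratio of -0.35 in liver. Perforin had a ratio of 1.08 (0.36 to 1.76), and Gzma one of -0.43. Hspa1a had 13 UMIs in EomesTG and 0 in WT spleen effector cells. Ccr2 had a ratio of 0.47 (-0.42 to 1.29) and Cxcr6 one of -1.07 (-2.45 to 0.06). The liver interval of Eomes and the spleen intervals of Ccr2 and Cxcr6 include 0, and the difference between organs was not tested.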

How the data were processed

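Expression was measured in single CD8 T cells sorted from liver and spleen (10x Genomics 5′ v1), with 4 RNA and 4 TCR libraries, 1 per genotype and organ and 3 mice in each pool. Per the submitters' processing notes, Cell Ranger and mm10 were used, and per the file headers the software version was 3.1.0 with format version 2. The deposited matrices hold raw UMI counts of 31053 genes per barcode, without normalization, and the authors deposited 4587 EomesTG and 3327 WT liver barcodes. The contig tables hold the authors' counts of UMIs and reads per TCR contig. No deposited value column was left unmatched to a sample (0).

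Counts were summed over the cells of a set, divided by their total and multiplied to CPM, with exact Poisson intervals. Ratios have exact conditional binomial intervals and shares exact Clopper-Pearson intervals, all at 95%. A gene was measured with at least 50 UMIs over both sides and called at 2-fold. Against 0 UMIs a fold uses a floor of 3 counts over the set of cells. No p-value was computed. Scripts were tested on simulated data. Naive-phenotype cells had UMIs of naive-cell genes and none of Nkg7, Pdcd1 and the 3 effector genes. No doublet caller was used; an alternative leaves out barcodes with 2 TRB chains. Libraries share barcodes: 100 EomesTG and 81 WT kept liver barcodes occur in another library. Positions come from GENCODE M21 on GRCm38, which held 30934 of the gene IDs. Calculations ran in Python 3.11.15 with scipy 1.17.1, numpy 2.4.6 and pandas 2.3.3, and plots in matplotlib 3.10.9.

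Members, the 20 gene lists and the alternatives were chosen with earlier results of these data known. The text names the 12 highest and 12 lowest genes by the interval bound nearest to equality, without receptor segments, mitochondrial, ribosomal, sex-linked and unnamed genes and markers of other cells, up to 4 members per list by size of ratio, and 15 further genes of T cell function. Some of the genes that this rule selects are not reported here. Spdya, Cd74, Ccl3, Gzmk, Tcf7, Mki67 and Trbv29 were added after their values were seen. Listed genes that fell short of 50 UMIs, whose symbol is repeated (Aldoa) or that the files do not hold under that symbol (Cd244a, Trgc1, Trgc2) were not measured.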

Additional observations from a re-analysis of the deposited data

Results flagged for a closer look

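For 6 genes the EomesTG over WT log2 ratio had opposite signs in effector cells and in the other kept liver cells, with a size of at least 0.5 and intervals on opposite sides of 0 in both. The difference between the cell sets was not tested. Ccl4 stood at -0.59 in effector cells and 2.29 in other cells. Cxcr6 stood at -0.995 and 1.32, and Gzmb at -0.82 and 0.95, in effector and other cells. S100a6, a calcium-binding protein of activated T cells, stood at -0.59 in effector cells, with 789 CPM in EomesTG and 1191 CPM in WT, and at 0.88 in other cells; its ratio in effector cells was 0.43 with Pdcd1 cells kept, 0.42 in cells chosen after thinning, and 0.21 in those of them without a Pdcd1 UMI before thinning. Syt11, a vesicle-traffic protein, stood at -2.27 on 3 EomesTG and 54 WT UMIs in effector cells and at 1.68 in other cells. Xcl1 stood at 2.57 in effector cells, where 44 of its 54 EomesTG UMIs came from 1 cell, and at -1.07 in other cells.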

How the results depend on the processing

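With 1 library per group no replicate could be left out, and no paired analysis was possible because each genotype and organ has 1 library. With an effector sum of at least 3, the shares were 0.973% in EomesTG and 5.46% in WT; thinned to 2000 UMIs they were 1.02% and 4.91%; with Pdcd1 cells kept they were 2.59% and 8.86%, a WT over EomesTG ratio of 3.42. The count of higher genes, 37 in the text, was 23 thinned, 101 with Pdcd1 cells kept, 111 with each clone counted once, 72 as a mean over cells, 15 at 100 and 404 at 10 UMIs, and 24 without cycling cells. The count of lower genes, 106 in the text, was 67 with Pdcd1 cells kept, 200 with each clone counted once, 61 without the largest clone, 19 at 100 and 717 at 10 UMIs, 212 without each gene's highest cell and 65 without cycling cells. Listed genes higher, 7, were 22 with Pdcd1 cells kept, 3 at 100, 20 at 10 UMIs and 2 without cycling cells; those lower, 4, were 14 thinned, 10 with Pdcd1 and 7 with Ncr1 cells kept, 17 at 10 UMIs, 7 without the highest cell and 2 without cycling cells. The Eomes ratio was 0.60 with Pdcd1 cells kept and 0.32 with each clone counted once, so its sign depends on both. The percent of EomesTG effector cells in clones of 2 or more was 49.0 with Pdcd1 cells kept. By TRB alone, 11.2% of EomesTG and 51.0% of WT cells of effector clones met the rule (46.9% of WT at a sum of 3), and 71.0% of those EomesTG cells held Pdcd1. Of 67 named genes with an interval on 1 side of 0, 18 changed sign under at least 1 alternative, 12 of them in cells chosen after thinning and 8 with each clone counted once. Genes at least 2-fold apart that turned were Xcl1 (-1.24 thinned, -0.21 without cycling cells), Hist1h1b (0.012 with clones counted once, 0.0040 as a mean over cells) and Ube2c (0.25 without cycling cells). Cxcr6 and Gzmb turned positive when thinned, 0.40 and 0.43, but 6 of those 40 EomesTG cells and 6 of 145 WT cells held Pdcd1 before thinning. Without them the ratios were -0.30 (-1.32 to 0.61) for Cxcr6 and -0.28 (-0.59 to 0.02) for Gzmb, with S100a6 at 0.21 (-0.03 to 0.46). All of these intervals include 0. Ccl4 was 0.72 with Pdcd1 cells kept. Ranges over all alternatives were -2.18 to -1.25 for Ccr2, 1.62 to 2.18 for Hspa1a and 0.51 to 0.75 for the heat shock median. Other genes had wider ranges, among them Rgs16 (0.29 to 2.75) and Ifrd1 (0.09 to 1.57). Of the values of named genes, 1751 of 1917 moved by less than their interval, but this total includes settings that could hardly move a ratio. The minimums of 100 and 10 UMIs and the centring on the median ratio left 101 of 101 genes within it. The fewest genes stayed within it when thinned (62 of 101), with Pdcd1 cells kept (68) and with each clone counted once (79). Leaving out cycling cells and each gene's highest cell were chosen after seeing the data, and the cause of these shifts was not tested beyond what a setting itself removes.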

Other observations

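The largest WT effector clone, taken by its TRB chain, stood apart from the other WT effector cells. Over 3583 genes with at least 50 UMIs in its 65 cells and the other 178 WT effector cells together, 49 were at least 2-fold higher and 88 lower in the clone. Klrc1, the NKG2A receptor gene, had 0 UMIs in the clone and 250 in the other cells, and Il7r, the interleukin 7 receptor of memory cells, had 1 and 154. Klrk1, the NKG2D receptor gene, had 5 UMIs in the clone and 176 in the others. Log2 ratios of the clone over the other cells were 1.17 for Gzmk, 0.89 for Gzma, 0.68 for Eomes and 0.61 for Klrg1, and -0.58 for S1pr5. These are cells of 1 clone in 1 library, so nothing separates the clone from the mouse it came from.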
